A study of Homo sapiens with 8 samples.

Results

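Divergent promoter transcripts are long noncoding RNAs that start beside a protein-coding gene and run away from it on the opposite strand. Annotation names them after that neighbour with the suffix -DT. Of 61228 rows in the count table, 589 carried such a name, and 93 of these had no count in any library. The 103 rows described here were selected on their counts, as those with at least 200 counts summed over the 8 libraries. Each was set beside its partner, the coding gene whose symbol stands before the suffix. All 103 partners were in the table. Because the selection used the sum over all 4 groups, levels are given as a description, and only differences between groups were tested. All 103 divergent transcripts and all 103 partners passed the filter on low counts.

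Many promoters of coding genes are bidirectional, with RNA polymerase II starting in both directions from separate core promoters that share a nucleosome-free region. Most upstream RNA of this kind is short-lived: it meets polyadenylation signals early, has few U1 splice sites to protect it, and is degraded by the nuclear exosome. Named -DT genes are the part of this output that is spliced or stable enough to have been annotated. A divergent transcript can share the regulation of its partner, since both use one stretch of open chromatin, but its level also depends on its own termination, splicing and decay.

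The cells were MDA-MB-231, a mesenchymal triple-negative human breast cancer line. They were grown as monolayers on plastic (2D) or inside collagen I gels (3D), as controls or as a knockout of the ETS transcription factors ETV1, ETV4 and ETV5 made by nucleofection of Cas9 with guides to the 3 genes, with 2 libraries in each of the 4 groups. For control monolayers the label gives a control guide and no Cas9, whereas for control gels it gives Cas9 as well. Gel cells were released by collagenase, pelleted and frozen before RNA extraction and monolayer RNA was taken directly, so growth in a gel and the way of harvest cannot be told apart; the labels give alternative collagen concentrations without saying which library had which. Neither the clonality of the knockout cells nor the origin of the 2 libraries in each group (1 culture or more) is stated, so every p-value measures only the spread between these libraries.

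Library totals ran from 15824504 to 23896899 counts. The libraries carried the line's markers, with VIM at 5284 to 7407 CPM (counts scaled to library size) and ESR1 and PGR at no more than 0.0805, although ERBB2 (56.4 to 69.4 CPM) and KRT19 (400 to 727 CPM) were expressed. Markers of other cells were low: CD3E, CDH5, DCN and PDGFRA were at or below 0.121 CPM, and PECAM1 (3.40 to 7.88 CPM) and PDGFRB (2.47 to 6.28 CPM) were the highest. In knockout cells ETV1 fell from 200 and 205 to 136 and 151 CPM in monolayers and from 222 and 217 to 138 and 141 CPM in gels. ETV4 fell from 81.3 and 89.2 to 63.5 and 61.2 CPM, and from 96.8 and 96.6 to 67.1 and 63.0 CPM. ETV5 was at 110 to 119 CPM in all 8 libraries, with log2 changes of 0.03 ± 0.05 and 0.02 ± 0.05. Counts per gene do not show whether a transcript carries an edited, non-functional sequence. In bulk RNA, fewer cells with a transcript and less of it per cell cannot be told apart.

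The name was checked against the annotation. GENCODE 29 (GRCh38) held 102 of the 103 transcripts, most under older names, since only 24 were called -DT there; 48 were typed as antisense, 44 as lincRNA, 7 as processed transcript and 3 as bidirectional promoter lncRNA. All 102 lay on the strand opposite to the partner. RefSeq start sites (GRCh38.p14) were found for both members of 83 pairs, again all on opposite strands. The closest starts were a median of 168 bases apart (quartiles 87.5 and 255), 63 pairs started within 300 bases of each other, and 78 pointed away from each other without overlap. The exceptions in RefSeq were 5 pairs with starts that overlap, and ATP13A3-DT and GARS1-DT, whose closest RefSeq starts were 18755 and 16956 bases from the partner's. Distances between the gene starts of GENCODE 29 differ, and are negative where the starts overlap. They were -46947 for ITGB1-DT, -6980 for ZNF584-DT (186 in RefSeq) and 15435 for PPP1CB-DT (74 in RefSeq). MRPL20-DT (1783), DUSP5-DT (1634) and ST3GAL1-DT (1243) also started far from the partner in GENCODE 29 and had no RefSeq distance. Many other distances were negative in GENCODE 29, GOT1-DT (-650) and SAP30-DT (-477) among them. In GENCODE 29, 44 transcripts shared an exonic stretch with some other gene, 29 of them with the partner itself, and 58 shared none. Exonic length ran from 311 to 22965 bases (median 2259.5), against a median of 6010 bases for the partners. Lengths and shared exons are those of GENCODE 29; the annotation used for counting is not stated and, since it has the newer -DT names, may hold other exons.

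Promoter windows of 250 bases before to 50 bases after the start (RefSeq, GRCh38.p14) were found for 86 of the transcripts and 91 of the partners. Their median GC content was 69.7% and 69.3%, against 65% in 14655 windows of expressed genes and 58.7% in all 35116 windows. Expressed genes are here those with at least 200 counts summed over the 8 libraries, a different set from the genes tested for differences. In RefSeq the starts of a pair were a median of 168 bases apart, so both windows of many pairs cover much of the same sequence. A match read on both strands is then often counted in both sets. The divergent and partner shares are therefore not independent of each other. The ETS core CGGAAG, read on both strands, was in 36.1% of the divergent windows and 40.7% of the partner windows. It was in 30.2% of the windows of expressed genes and 19.5% of all windows. Its longer form CCGGAAGT, which contains the core, was in 10.5% and 12.1%, against 7.61% of expressed genes. The NRF1 motif GCGCATGC was in 10.5% of the divergent windows and 6.59% of the partner windows, against 4.81% of expressed genes. CCAAT, the NF-Y box, was in 36.1% and 40.7%, close to the 35.0% of expressed genes. ACGTG, the core of the hypoxia element, was in 33.7% and 28.6%, against 25.8%, and this motif includes every CACGTG E box (11.6%, 8.79% and 9.26%). The CRE TGACGTCA and the AP-1 motif TGACTCA were each in 1.16% of the divergent windows, against 2.84% and 3.58% of expressed genes. On the transcript's own strand, the polyadenylation signal AATAAA was in 3.49% of the divergent windows. It was in 5.52% of the windows of expressed genes and 9.84% of all windows. The splice donor GTAAGT was in none of 86 divergent and none of 91 partner windows, against 2.60% of expressed genes and 3.40% of all windows. Of each window, 250 bases lie before the start and outside the transcript, so the matches to AATAAA and GTAAGT do not describe signals within it. These windows differ in base composition, and the matches describe letters, not bound sites.

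The 6 stretches below lie between the start of a divergent transcript and that of its partner by both annotations, so that neither transcript covers them; they are shown because the results turn on these pairs, which include one that moved with its partner, others that moved against it, and one of the most abundant. Each is written 5′ to 3′ on the partner's strand, so that the partner starts after the last base and the divergent transcript starts before the first, in the other direction. Capitals mark matches on either strand to the transcription factor motifs named above.
SH3TC2-DT: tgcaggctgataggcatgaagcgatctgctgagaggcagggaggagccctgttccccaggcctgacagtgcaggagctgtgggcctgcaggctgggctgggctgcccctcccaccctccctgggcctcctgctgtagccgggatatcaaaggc
SUCLG2-DT: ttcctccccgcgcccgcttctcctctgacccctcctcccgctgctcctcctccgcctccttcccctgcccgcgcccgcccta
DNAJC3-DT: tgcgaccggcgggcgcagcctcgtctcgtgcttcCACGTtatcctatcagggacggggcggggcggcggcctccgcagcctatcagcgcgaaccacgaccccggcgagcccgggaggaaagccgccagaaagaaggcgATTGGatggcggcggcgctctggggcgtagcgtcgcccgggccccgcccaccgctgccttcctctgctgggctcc
WAPL-DT: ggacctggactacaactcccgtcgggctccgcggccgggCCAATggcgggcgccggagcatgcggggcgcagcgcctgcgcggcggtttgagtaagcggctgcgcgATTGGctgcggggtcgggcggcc
MRPS30-DT: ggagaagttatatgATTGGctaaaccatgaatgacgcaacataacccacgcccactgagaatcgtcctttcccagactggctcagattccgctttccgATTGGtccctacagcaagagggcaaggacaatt
PCCA-DT: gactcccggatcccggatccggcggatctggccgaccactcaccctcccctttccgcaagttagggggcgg
They come from RefSeq, build GRCh38.p14. The SH3TC2 stretch lies at chr5:149063164-149063316 on the minus strand and the SUCLG2 stretch at chr3:67654615-67654696 on the minus strand. Those of DNAJC3 (chr13:95676926-95677138), MRPS30 (chr5:44808794-44808924) and PCCA (chr13:100088944-100089014) are on the plus strand, and that of WAPL (chr10:86521816-86521944) is on the minus strand. Between the starts of DNAJC3-DT and DNAJC3, 213 bases with a GC content of 72.8% held 29 CpG dinucleotides, 1 hypoxia element core and 1 NF-Y box. The 129 bases between WAPL-DT and WAPL and the 131 between MRPS30-DT and MRPS30 each held 2 NF-Y boxes. The 153 bases of SH3TC2 (GC 66.0%) held only 2 CpG dinucleotides and none of the motifs, and none was found in those of SUCLG2 and PCCA either. No ETS core lay in any of the 6 stretches.

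In level, the divergent transcripts were minor products. Together they held 0.0607% of all counts and 83.8% of the counts of all -DT rows. Their summed counts ran from 214 to 4925 (median 453), and those of the partners from 64 to 145286 (median 9286). The median pair gave 7.26 divergent counts per 100 partner counts. Per kilobase of exon, the divergent transcript reached a median of 16.3% of its partner over 102 pairs (quartiles 7.99% and 53.8%). It was under 1% of the partner in 3 pairs, those of TMED2, GARS1 and SLC20A1, which encode a vesicle cargo receptor, the glycyl-tRNA synthetase and a phosphate transporter. It was higher than the partner per kilobase in 14 pairs. Among these, FAM151B-DT stood at 7.68 CPM per kilobase against 0.266 for FAM151B, and PCCA-DT at 8.16 against 1.49 for PCCA, the alpha subunit of mitochondrial propionyl-CoA carboxylase. ANKHD1-DT stood at 3.07 against 0.305 for ANKHD1, whose reads are of uncertain assignment where it overlaps the readthrough row ANKHD1-EIF4EBP3. Reads in stretches shared by genes on opposite strands are uncertain in the same way, because the strand setting of the counting is not given.

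Among the most abundant by mean CPM were ZNF584-DT (31.4), SLC12A2-DT (28.8), CTBP1-DT (21.6) and SUCLG2-DT (21.4). CTBP1-DT, beside the gene of a transcriptional corepressor, stood at 18.7 to 23.3 CPM over all 8 libraries and did not pass the test in any comparison. ZNF584-DT, beside a zinc finger gene, was one of 5 transcripts with more counts than the partner, at 129 per 100 counts of ZNF584.

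Changes are given as log2 fold changes ± SE from edgeR's quasi-likelihood test, and a transcript is said to rise or fall where its p-value, adjusted by Benjamini-Hochberg over all 15568 genes tested, was under 0.05. The median SE was 0.22 to 0.24 for the divergent transcripts in the comparisons of 2 groups, against 0.07 for the partners, so a change had to be larger to pass in a divergent transcript. Of the 103, 51 passed in none of the 4 comparisons of 2 groups, 20 in 1, 24 in 2, 5 in 3 and 3 in all 4. The same counts were not read over all genes.

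Knockout of the ETV factors in monolayers lowered SH3TC2-DT more than any other divergent transcript, together with SH3TC2. Of the 103, 2 rose (1.94%) and 13 fell (12.6%), against 9.6% of all genes that rose and 9.6% that fell. Their median log2 change was -0.04, beside 0.01 over all genes. SH3TC2 encodes an endosomal recycling protein of Schwann cells. Its divergent transcript stood at 29.1 and 26.3 CPM in the control libraries and at 14.4 and 14.2 CPM in the knockout libraries, a change of -0.96 ± 0.09 (adjusted p = 1.2e-09). SH3TC2 itself stood at 73.2 and 74.9 CPM against 33.1 and 36.2 CPM, a change of -1.09 ± 0.07. The knockout libraries were thus below both controls in both rows, and the ratio of the pair overlapped between the groups, at 39.7 and 35.1 divergent counts per 100 partner counts in controls and 43.6 and 39.2 in knockouts.

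APCDD1L-DT, beside a relative of the WNT inhibitor gene APCDD1, rose with its partner in knockout monolayers. It went from 25.7 and 23.6 to 31.5 and 32.5 CPM (0.37 ± 0.08, adjusted p = 0.0014), and APCDD1L from 102 and 103 to 141 and 151 CPM (0.51 ± 0.06). The other riser, PDCD6IP-DT, went from 8.41 and 8.0 to 11.4 and 10.5 CPM (0.41 ± 0.12), while PDCD6IP, which encodes the ESCRT adaptor ALIX, fell from 276 and 283 to 250 and 258 CPM (-0.14 ± 0.05). It was the only pair of this comparison in which both rows passed with opposite signs. Without control replicate 1, control replicate 2 or knockout replicate 1, the PDCD6IP-DT call was lost (adjusted p 0.078, 0.077 and 0.16).

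The largest falls after SH3TC2-DT were smaller transcripts. BOLA3-DT, beside a mitochondrial iron-sulfur cluster gene, went from 2.50 and 3.66 to 1.93 and 1.36 CPM (-0.87 ± 0.27), with BOLA3 at 0.11 ± 0.09. DPY19L3-DT, beside a C-mannosyltransferase gene, fell by 0.85 ± 0.29 and CSTF3-DT, beside a subunit of the cleavage stimulation factor, fell by 0.77 ± 0.27. CNN3-DT, beside the actin-binding calponin 3, went from 5.43 and 4.47 to 3.56 and 3.00 CPM (-0.62 ± 0.21), with CNN3 at -0.19 ± 0.05. SAP30-DT (-0.45 ± 0.13), TMEM161B-DT (-0.56 ± 0.14), FMNL1-DT (-0.59 ± 0.11) and GARS1-DT (-0.35 ± 0.10) also fell. Many of these calls were lost without 1 library: without knockout replicate 2 the adjusted p was 0.25 for both BOLA3-DT and CNN3-DT, without knockout replicate 1 it was 0.27 for CSTF3-DT and 0.18 for DPY19L3-DT, and without control replicate 1 it was 0.24 for TMEM161B-DT and 0.31 for CNN3-DT. The count of 15 became 6 without control monolayer replicate 1, 6 without knockout monolayer replicate 1 and 6 without knockout monolayer replicate 2, and 4 by DESeq2.

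In gels, knockout again lowered SH3TC2-DT with its partner, and it lowered SAP30-DT without it. Of the 103, 2 rose (1.94%) and 11 fell (10.7%), against 11.5% and 12.4% of all genes, and their median log2 change was -0.06, beside -0.00 over all genes. SH3TC2-DT stood at 23.8 and 25.9 CPM in control gels and at 9.48 and 9.78 CPM in knockout gels (-1.36 ± 0.10, adjusted p = 1e-12), and SH3TC2 went from 75.8 and 73.2 to 29 and 28.5 CPM (-1.37 ± 0.07). The ratio of the pair was 31.4 and 35.5 in control gels and 32.6 and 34.3 in knockout gels, so the groups overlapped. SLC12A2-DT, beside the gene of a sodium-potassium-chloride cotransporter, rose with its partner: it went from 29.8 and 27.8 to 34.4 and 34.5 CPM (0.26 ± 0.08), and SLC12A2 from 48.6 and 48.1 to 61.3 and 60.8 CPM (0.34 ± 0.07). The SLC12A2-DT call was lost without control gel replicate 2 (adjusted p = 0.18) or knockout gel replicate 2 (0.082).

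SAP30-DT starts beside the gene of a subunit of the SIN3-HDAC corepressor complex and shares no annotated exon. It stood at 11.2 and 11 CPM in control gels and at 5.15 and 4.57 CPM in knockout gels (-1.20 ± 0.14, adjusted p = 5.5e-08). SAP30 stood at 50.4 and 47.3 CPM against 47.0 and 46.9 CPM, a change of -0.06 ± 0.07 with a 95% interval of -0.19 to 0.08. The divergent transcript thus went from 22.3 and 23.3 to 11 and 9.74 counts per 100 counts of SAP30. The call for the divergent transcript held in every alternative that was run.

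FMNL1-DT fell in knockout gels from 13.8 and 14.2 to 8.05 and 6.38 CPM (-0.96 ± 0.14), and FMNL1, a formin that elongates actin filaments, fell less, from 268 and 252 to 198 and 196 CPM (-0.40 ± 0.05). These rows share 637 exonic bases on opposite strands. SLC20A1-DT fell from 2.50 and 1.70 to 1.04 and 1.01 CPM (-1.04 ± 0.30), EOLA2-DT from 1.49 and 1.86 to 1.15 and 0.478 CPM (-1.03 ± 0.38), and CNN3-DT from 3.55 and 3.90 to 2.85 and 1.65 CPM (-0.73 ± 0.24). PCCA-DT rose from 8.50 and 7.13 to 10.6 and 9.73 CPM (0.37 ± 0.14, adjusted p = 0.047), with PCCA at -0.30 ± 0.13. Without control gel replicate 2 the adjusted p was 0.35 for PCCA-DT and 0.24 for EOLA2-DT, and without control gel replicate 1 it was 0.23 for SLC20A1-DT. The count of 13 became 5 without control gel replicate 1, 5 without control gel replicate 2, 5 without knockout gel replicate 2, and 4 by DESeq2. The knockout calls of monolayers and gels, which share no library, had 5 transcripts in common, all lower in both. They were CNN3-DT, FMNL1-DT, GARS1-DT, SAP30-DT and SH3TC2-DT, 33.3% of the monolayer calls and 38.5% of the gel calls. The overlap over all genes was not read, so these shares do not set the divergent transcripts apart.

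**Figure D1:**
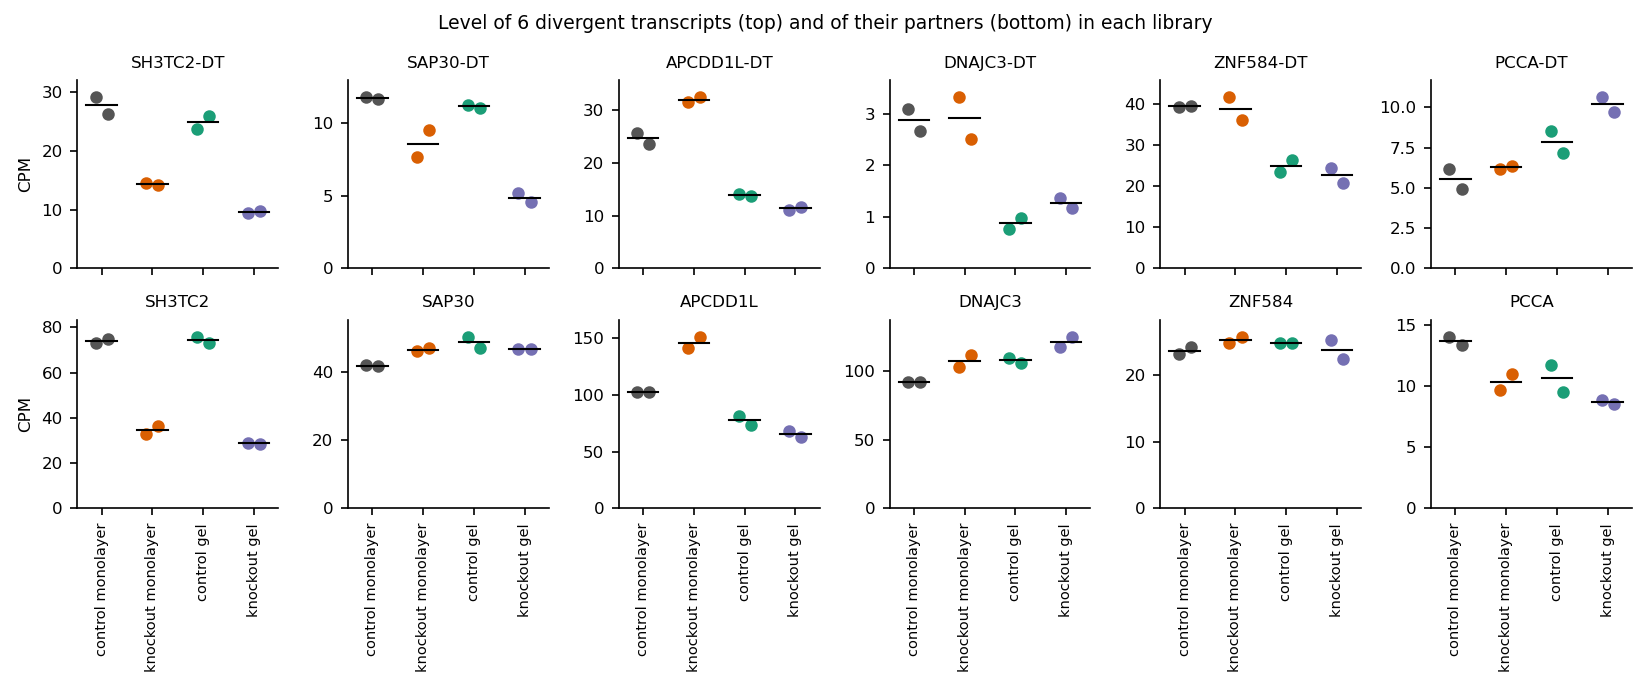
Level in CPM (vertical axes, from 0) of 6 divergent transcripts (top row) and of their partners (bottom row), with a point for each library and a bar for the mean of the 2 libraries of a group. SH3TC2-DT and SH3TC2 fell together in knockout cells, SAP30-DT fell in knockout gels with SAP30 at 46.9 to 50.4 CPM in the 4 gel libraries, DNAJC3-DT and ZNF584-DT were lower in all 4 gel libraries than in all 4 monolayer libraries, and PCCA-DT was highest in knockout gels, where PCCA was lowest.

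Control cells in gels had lower levels of divergent transcripts than control cells in monolayers, mostly without a matching fall of the partner. Of the 103, 26 fell (25.2%) and 2 rose (1.94%), against 10.7% of all genes that fell and 16% that rose. The median log2 change was -0.27, beside 0.01 over all genes and 0.07 over the partners, of which 25 rose and 11 fell. The partners' split depends on scaling, with 22 higher and 12 lower by DESeq2's size factors, 16 and 13 by upper-quartile factors, and 11 and 20 by library size alone. It also rests on the libraries: 11 rose and 7 fell without control monolayer replicate 1, 13 and 7 without control gel replicate 1, and 13 and 6 without control gel replicate 2. For the divergent transcripts those scalings gave medians of -0.28, -0.31 and -0.35. The log2 change of the divergent row lay below that of its partner in 80 of 103 pairs.

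GOT1-DT changed most. It starts beside the gene of the cytosolic aspartate aminotransferase, 312 bases from its start in RefSeq. It stood at 5.67 and 4.47 CPM in control monolayers and at 0.768 and 1.43 CPM in control gels (-2.25 ± 0.25, adjusted p = 2.1e-08), a fall by 79.0%. GOT1 stood at 61.3 and 63.0 against 58.2 and 61.2 CPM (-0.06 ± 0.06, 95% interval -0.18 to 0.07). Both gel libraries were far below both monolayer libraries in the divergent row alone. In GENCODE 29 the 2 genes share 651 exonic bases.

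DNAJC3-DT shares no exon with any gene. It stood at 3.10 and 2.67 CPM in control monolayers and at 0.768 and 0.988 CPM in control gels (-1.73 ± 0.29, adjusted p = 2.5e-05). DNAJC3, an endoplasmic reticulum co-chaperone that restrains eIF2α kinases, rose from 92.2 and 92.5 to 110 and 106 CPM (0.23 ± 0.06). The divergent counts per 100 partner counts went from 3.36 and 2.89 to 0.698 and 0.932. ZKSCAN2-DT, beside a zinc finger gene, went from 4.27 and 2.73 to 1.15 and 1.48 CPM (-1.46 ± 0.28), with ZKSCAN2 at 0.23 ± 0.11. WAPL-DT, beside the gene of the cohesin release factor, went from 2.54 and 1.68 to 1.1 and 0.658 CPM (-1.27 ± 0.33), with WAPL at 0.10 ± 0.05; the call was lost without control monolayer replicate 1 (adjusted p = 0.16) or control gel replicate 2 (0.080).

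Abundant members fell as well. TMEM161B-DT went from 17.6 and 12.8 to 6.10 and 7.74 CPM (-1.17 ± 0.14), while TMEM161B, a membrane protein gene, rose from 30.8 and 28.5 to 35.8 and 35.5 CPM (0.26 ± 0.08). ZNF584-DT went from 39.3 and 39.4 to 23.4 and 26.3 CPM (-0.67 ± 0.09, adjusted p = 3.6e-07), with ZNF584 at 0.07 ± 0.08. Its counts went from 170 and 163 to 94.4 and 106 per 100 counts of the partner. FMNL1-DT went from 27.3 and 21.0 to 13.8 and 14.2 CPM (-0.81 ± 0.11), while FMNL1 rose from 199 and 215 to 268 and 252 CPM (0.33 ± 0.05).

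In 7 pairs both rows passed with opposite signs. Besides DNAJC3, TMEM161B and FMNL1 they were EIF3J, TMED2, TNFRSF10A and PCCA, which encode a subunit of translation initiation factor 3, a vesicle cargo receptor, a TRAIL death receptor and the carboxylase subunit. EIF3J-DT changed by -0.41 ± 0.13 against 0.17 ± 0.05, TMED2-DT by -1.07 ± 0.24 against 0.15 ± 0.05, and TNFRSF10A-DT by -0.41 ± 0.16 against 0.45 ± 0.07. PCCA-DT was the reverse case: it rose from 6.20 and 4.90 to 8.50 and 7.13 CPM (0.47 ± 0.15) and PCCA fell from 14 and 13.4 to 11.8 and 9.55 CPM (-0.36 ± 0.12). The other riser, PDCD6IP-DT, went from 8.41 and 8.0 to 13 and 13.5 CPM (0.68 ± 0.12, adjusted p = 4.8e-05), with PDCD6IP at 0.11 ± 0.05. Several of the smaller calls were lost without 1 library: without control gel replicate 1 the adjusted p was 0.26 for PCCA-DT, 0.10 for EIF3J-DT and 0.10 for TNFRSF10A-DT, and without control monolayer replicate 1 it was 0.19 for EIF3J-DT. The partner's call was lost as well in some alternatives for DNAJC3 (2 alternatives), EIF3J (6), TMED2 (6), TMEM161B (5) and PCCA (3), and of the 7 pairs only FMNL1 kept both calls in every alternative run. Without control gel replicate 1 the adjusted p was 0.061 for DNAJC3, 0.10 for EIF3J, 0.16 for TMED2 and 0.084 for TMEM161B, and without control gel replicate 2 it was 0.32 for PCCA. Only APCDD1L-DT (-0.83 ± 0.09, with APCDD1L at -0.40 ± 0.06) and EDIL3-DT (-0.68 ± 0.16, with EDIL3, a secreted integrin ligand, at -0.41 ± 0.05) passed in the same direction as the partner.

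**Figure D2:**
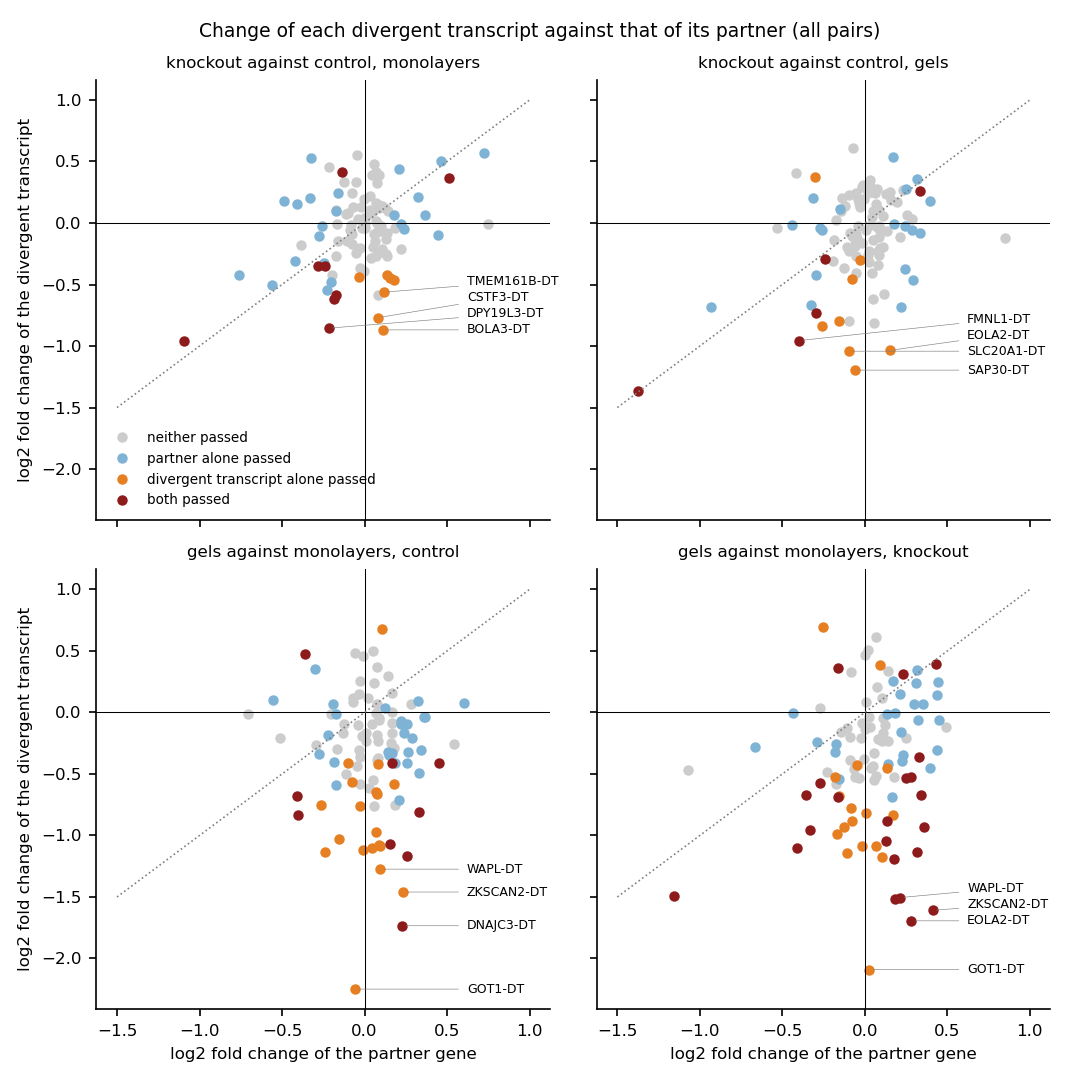
Log2 fold change of each divergent transcript (vertical axis) against that of its partner (horizontal axis) for the 103 pairs in the 4 comparisons of 2 groups. Points are coloured by which row of the pair passed the test, the dotted line marks equal change, and 4 transcripts with large differences from the partner are named in each panel. In both gel panels most points lie below the dotted line, whereas in the knockout panels the SH3TC2 pair at the lower left lies on or near it.

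Knockout cells in gels, set against knockout monolayers, had falls in 34 divergent transcripts (33.0%) and rises in 5 (4.85%), against 17.9% of all genes that fell and 20.1% that rose. The median log2 change was -0.36, beside -0.01 over all genes and 0.07 over the partners. Of the partners 34 rose and 13 fell, a split that became 21 and 19 by upper-quartile factors and 20 and 22 by library size alone. The divergent medians were -0.36, -0.41 and -0.43 under DESeq2's size factors and these 2 scalings. In 84 of 103 pairs the divergent row lay below its partner's change. This comparison and that of control cells share no library, and 21 transcripts passed in the same direction in both. These are 75% of the control calls and 53.9% of the knockout calls, and here too the overlap over all genes was not read.

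GOT1-DT again changed most, from 4.05 and 3.82 to 0.877 and 0.957 CPM (-2.09 ± 0.28, adjusted p = 4e-07), with GOT1 at 0.03 ± 0.06. EOLA2-DT went from 2.60 and 2.67 to 1.15 and 0.478 CPM (-1.69 ± 0.35). EOLA2 has a close copy, EOLA1, so the assignment of its reads is uncertain. ZKSCAN2-DT went from 3.69 and 3.27 to 1.59 and 0.691 CPM (-1.61 ± 0.31) and GSK3B-DT, beside the kinase of the WNT and insulin pathways, from 2.60 and 2.07 to 0.931 and 0.691 CPM (-1.51 ± 0.35). WAPL-DT went from 1.93 and 2.51 to 0.603 and 0.957 CPM (-1.5 ± 0.35). In all 5, both gel libraries were below both monolayer libraries, and the partner was flat or higher, between 0.03 and 0.41. ZNF584-DT went from 41.6 and 36.0 to 24.4 and 20.7 CPM (-0.78 ± 0.09) and DNAJC3-DT from 3.32 and 2.51 to 1.37 and 1.17 CPM (-1.19 ± 0.28).

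APCDD1L-DT fell here with its partner by the largest common change, from 31.5 and 32.5 to 11.1 and 11.7 CPM (-1.49 ± 0.09), and APCDD1L from 141 and 151 to 67.9 and 63.2 CPM (-1.16 ± 0.06). SH3TC2-DT went from 14.4 and 14.2 to 9.48 and 9.78 CPM (-0.57 ± 0.11), with SH3TC2 at -0.27 ± 0.07.

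Of 14 pairs with both rows passed and opposite signs, 13 had a lower divergent transcript: CHD1, DNAJC3, EIF3J, EOLA2, GARS1, GSK3B, MCPH1, MRPL20, MRPS30, TMED2, WAPL, ZKSCAN2 and ZMPSTE24. The partners include a chromatin remodeler (CHD1), mitochondrial ribosomal proteins (MRPL20, MRPS30), a regulator of chromosome condensation (MCPH1) and the protease that matures lamin A (ZMPSTE24). MRPS30-DT went from 2.72 and 3.44 to 1.64 and 1.59 CPM (-0.93 ± 0.26) while MRPS30 rose from 36.7 and 39.7 to 47.7 and 50.5 CPM (0.36 ± 0.07). MRPL20-DT changed by -1.14 ± 0.32 against 0.32 ± 0.07, CHD1-DT by -0.89 ± 0.26 against 0.14 ± 0.05, GARS1-DT by -0.53 ± 0.11 against 0.25 ± 0.05, and ZMPSTE24-DT by -0.36 ± 0.15 against 0.33 ± 0.07. Some of these calls were lost without 1 library: without knockout gel replicate 2 the adjusted p was 0.076 for MRPL20-DT, 0.14 for CHD1-DT and 0.12 for MCPH1-DT, and without knockout monolayer replicate 2 it was 0.078 for MRPS30-DT. ZMPSTE24-DT lay at the threshold and missed it under 10 alternatives, DESeq2 and the replicate block among them. The partner's rise was also lost in some pairs: without knockout gel replicate 2 the adjusted p was 0.35 for TMED2, 0.29 for GSK3B and 0.21 for CHD1. The number of opposite pairs depends on scaling, since it counts risen partners: it was 14 by DESeq2's size factors, 10 by upper-quartile factors and 10 by library size alone, and for control cells 8, 7 and 4.

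The 5 that rose in knockout gels were PCCA-DT, SLC12A2-DT, PDCD6IP-DT, SUCLG2-DT and RNASEH1-DT. PCCA-DT went from 6.16 and 6.38 to 10.6 and 9.73 CPM (0.70 ± 0.15, adjusted p = 0.00031) and its counts from 63.8 and 57.9 to 120 and 114 per 100 counts of PCCA, so that it outnumbered the partner in both knockout gel libraries. SLC12A2-DT went from 25 and 27.3 to 34.4 and 34.5 CPM (0.39 ± 0.08), with SLC12A2 at 0.43 ± 0.07. PDCD6IP-DT went from 11.4 and 10.5 to 15.2 and 13.4 CPM (0.38 ± 0.12). SUCLG2-DT, beside a subunit of the GTP-forming succinyl-CoA synthetase, went from 16.9 and 18.1 to 20.4 and 24.4 CPM (0.36 ± 0.10) while SUCLG2 fell (-0.16 ± 0.06), the only opposite pair of this comparison in which the divergent row was the higher; the SUCLG2 call was lost under 5 alternatives, with adjusted p up to 0.23. RNASEH1-DT, beside the gene of an RNA-DNA hybrid nuclease, changed by 0.31 ± 0.12 with RNASEH1 at 0.23 ± 0.08. Calls were lost without knockout gel replicate 2 for SUCLG2-DT (adjusted p = 0.16) and RNASEH1-DT (0.49), and without knockout monolayer replicate 2 for PDCD6IP-DT (0.099).

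**Figure D3:**
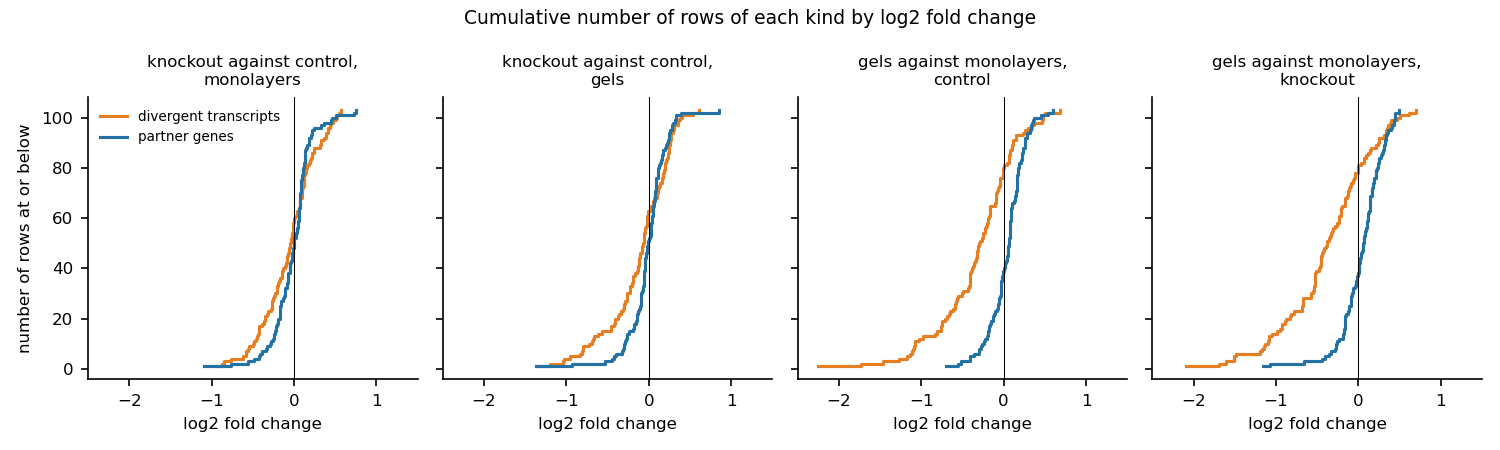
Cumulative number of the 103 divergent transcripts and of their 103 partners (vertical axis) at or below a given log2 fold change (horizontal axis) in the 4 comparisons of 2 groups. In the gel panels the curve of the divergent transcripts lies to the left of that of the partners, with medians of -0.27 and -0.36 against 0.07 and 0.07.

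Across all 103 pairs, the change of a divergent transcript was by Pearson's r weakly related to that of its partner in the knockout comparisons and not in the gel comparison of control cells. The 2 changes had the same sign in 56 and 55 pairs for the knockout in monolayers and gels, and in 42 and 52 for the gel in control and knockout cells. Pearson's r over pairs was 0.31 in monolayers and 0.34 in gels for the knockout, and -0.05 in control cells and 0.14 in knockout cells for the gel. Spearman's rho was 0.15, 0.21, -0.05 and 0.15. An extreme pair, such as that of SH3TC2 in the knockout comparisons, weighs more on r than on rho. Among the 58 pairs that share no annotated exon with any gene, r was 0.47, 0.39, -0.12 and 0.16, and rho was 0.28, 0.24, -0.12 and 0.17. The points share libraries, and the divergent rows carry more counting error, so these values are a description. Both rows passed with the same sign in 7 and 5 pairs for the knockout and in 2 and 8 for the gel, with opposite signs in 1, 0, 7 and 14 pairs. The same-sign counts fell without single libraries, to 3 for the knockout in monolayers (without control replicate 1 or knockout replicate 2; 4 without knockout replicate 1), to 2 in gels (without control replicate 2 or knockout replicate 2; 3 without control replicate 1), and to 3 for knockout cells in gels (without knockout monolayer replicate 2; 4 without knockout monolayer replicate 1 and 5 without knockout gel replicate 2). The divergent row passed alone in 7, 8, 19 and 17 pairs, the partner alone in 23, 19, 27 and 25, and neither in 65, 71, 48 and 39. In these counts a divergent row that did not pass is not shown to be unchanged, given its larger error.

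The ratio within a library needs no scaling between libraries. Counts of the divergent transcript per 100 counts of its partner were lower in both gel libraries than in both monolayer libraries for 60 of the 103 pairs in control cells and for 66 in knockout cells, and higher in 15 and 9. For the knockout the same counts were 34 lower and 21 higher in monolayers and 28 lower and 23 higher in gels. With 2 libraries a group, such separation is common: by CPM, 29.5% of all tested genes were lower and 34.9% higher without overlap in control gels, and 33.6% and 34% in knockout gels. For the knockout it was 26.7% lower and 30.2% higher in monolayers, and 30.7% and 30.9% in gels. These shares are for the CPM of single genes and not for a ratio of 2 rows, so they place the pair counts only roughly. The knockout counts, near or below them except for the 34 lower in monolayers, are not read as a difference. The SLC12A2 pair kept its ratio between 56.1 and 61.4 in all 8 libraries. The ratio of the PDCD6IP pair was 3.05 and 2.83 in control monolayers and 4.07 to 5.67 in the other 6 libraries.

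**Figure D4:**
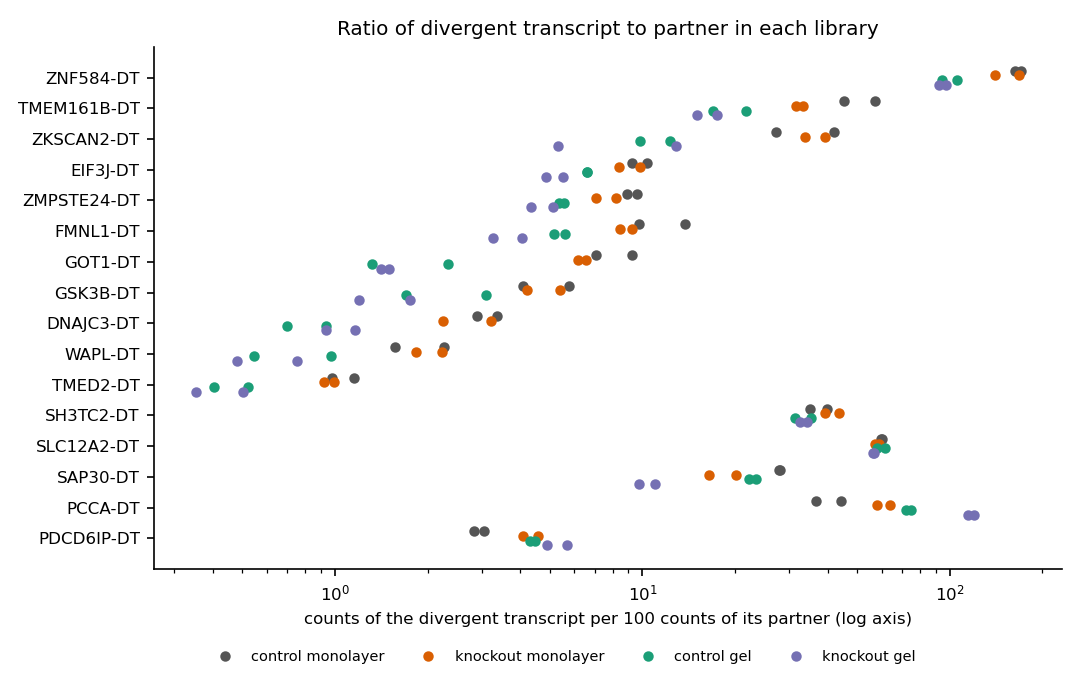
Counts of the divergent transcript per 100 counts of its partner (horizontal log axis) in each of the 8 libraries for 16 pairs, coloured by group. The 11 pairs from ZNF584-DT to TMED2-DT have lower ratios in gel libraries than in monolayer libraries, SLC12A2-DT stays between 56.1 and 61.4, SH3TC2-DT lies between 31.4 and 43.6, SAP30-DT is lowest in knockout gels, and PCCA-DT is highest there.

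Whether the knockout effect differed between gels and monolayers was tested as the interaction, the effect in gels minus that in monolayers. By edgeR none of the 103 passed higher and 2 passed lower (1.94%), against 2.67% and 3.94% of all genes, and DESeq2 gave 1 lower. The 2 by edgeR were SAP30-DT (-0.75 ± 0.20, adjusted p = 0.014), whose fall was larger in gels, and APCDD1L-DT (-0.66 ± 0.13, adjusted p = 0.0014). APCDD1L-DT rose with the knockout in monolayers and fell from 14.2 and 13.7 to 11.1 and 11.7 CPM in gels (-0.29 ± 0.10). The partner followed for APCDD1L (-0.75 ± 0.08) and did not pass for SAP30 (-0.21 ± 0.10). The SAP30-DT difference did not pass without knockout monolayer replicate 2 (adjusted p = 0.12), control gel replicate 1 (0.069) or knockout gel replicate 2 (0.079). For SH3TC2-DT the difference was -0.40 ± 0.14 (adjusted p = 0.083). Of the partners, 5 passed higher and 8 lower, a split that was 6 and 4 by DESeq2's size factors and by library size alone. They included DUSP5 (0.47 ± 0.08), ATP13A3 (0.33 ± 0.07), CAMSAP1 (0.25 ± 0.08) and TFIP11 (-0.33 ± 0.10), whose divergent transcripts differed by -0.00 ± 0.39, -0.02 ± 0.42, -0.10 ± 0.37 and -0.08 ± 0.37.

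In several pairs the partner passed the test and the divergent transcript, measured with a larger error, did not. DUSP5, an ERK phosphatase, fell with the knockout in monolayers from 149 and 160 to 92.4 and 89.7 CPM (-0.76 ± 0.05), whereas DUSP5-DT went from 2.17 and 2.67 to 2.05 and 1.53 CPM (-0.42 ± 0.26, adjusted p = 0.29). HK2, the hexokinase that starts glycolysis, fell from 237 and 251 to 175 and 172 CPM (-0.49 ± 0.05), and HK2-DT stood at 2.74 and 3.10 against 3.56 and 3.00 CPM (0.18 ± 0.21). INSIG1, a brake on cholesterol synthesis, fell by 0.56 ± 0.07 in monolayers and by 0.93 ± 0.07 in gels, beside -0.50 ± 0.28 and -0.68 ± 0.29 for INSIG1-DT. RBM33, an RNA-binding protein gene, fell by 0.33 ± 0.06 in monolayers, beside 0.53 ± 0.30 for RBM33-DT. MRPL20 rose in knockout gels (0.29 ± 0.07), beside -0.46 ± 0.34 for MRPL20-DT.

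The lower share of divergent transcripts in gels was shared by some other noncoding rows but not by all. The 103 held 0.0734% and 0.0676% of the counts in control monolayers, 0.0665% and 0.0649% in knockout monolayers, 0.0546% and 0.0550% in control gels and 0.0525% and 0.0509% in knockout gels, so the 4 gel libraries were below the 4 monolayer libraries. Rows named -AS with a number, antisense RNAs, held 0.217 to 0.237% in monolayers and 0.185 to 0.197% in gels. Rows named LINC held 0.145 to 0.161% and 0.122 to 0.137%. Small nucleolar RNA host genes (SNHG) overlapped, at 0.137 to 0.146% and 0.139 to 0.147%. Rows below the filter on low counts held 0.114 to 0.124% in monolayers and 0.0905 to 0.0990% in gels. A short list of long noncoding RNAs with MALAT1, NEAT1 and NORAD held 0.138 to 0.183% and 0.122 to 0.147%, so these ranges overlapped. NORAD alone stood at 455 to 530 CPM, and the list is not a measure of nuclear RNA. The part of RNA quality, nuclear RNA content or DNA carried into the libraries in these differences was not tested. Control monolayer replicate 1, the deepest library, had the highest divergent share, and without it the median change of the 103 in control gels was -0.20 and 21 transcripts passed.

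By the same test, 14.2% of 479 tested -AS rows fell and 2.51% rose in control gels, and 18.6% fell and 4.18% rose in knockout gels. Of 238 LINC rows, 14.3% and 22.3% fell, and of 23 SNHG rows 2 fell and 2 rose in control gels and 2 fell and 5 rose in knockout gels. The median SE was 0.31 to 0.33 in the -AS rows, so the shares that passed cannot be set against each other directly. Their median log2 changes were -0.20 and -0.25, beside -0.27 and -0.36 in the divergent transcripts.

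**Figure D5:**
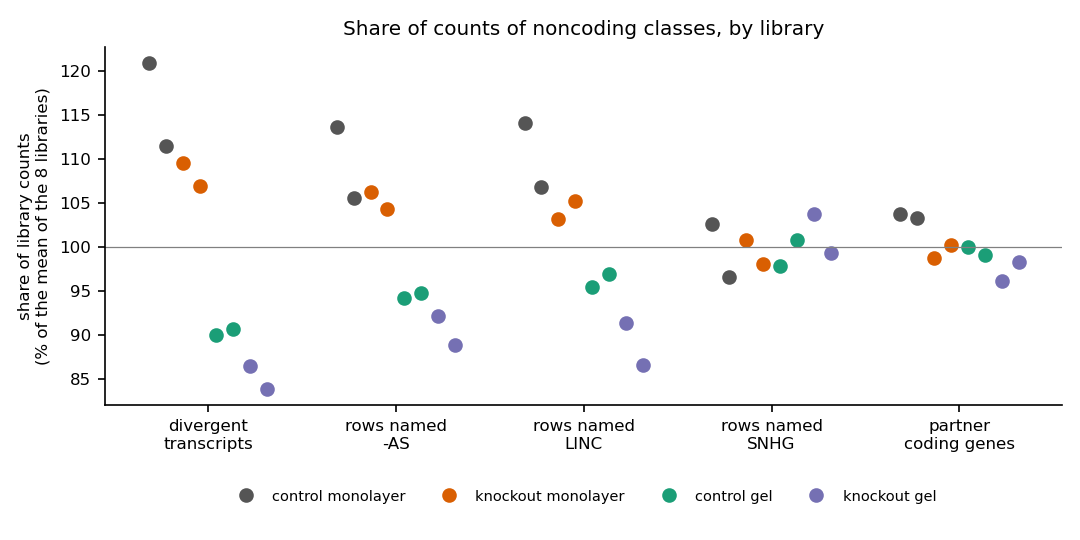
Share of each library's counts held by the divergent transcripts, rows named -AS, LINC and SNHG, and the partner genes, each as a percentage of its own mean over the 8 libraries (vertical axis, which does not start at 0), with a point for each library coloured by group. The 4 gel libraries lie below the 4 monolayer libraries for the first 3 classes but not for SNHG rows.

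Among genes that process or degrade promoter-upstream RNA, more passed higher than lower in gels. Of 65 tested members of a list of exosome, adaptor, cap-binding, U1, cleavage, Integrator and pausing genes, 21 rose and 4 fell in control gels, and 26 rose and 4 fell in knockout gels. These are 32.3% and 6.15%, and 40% and 6.15%, against 16% and 10.7% of all genes in control gels and 20.1% and 17.9% in knockout gels. The median SE of the list was 0.065 and 0.066, against 0.095 and 0.097 over all genes, so these shares cannot be set against each other directly. The partners, with a median SE of 0.066 and 0.067, rose in 24.3% and 33.0% and fell in 10.7% and 12.6%. The median log2 changes of the list were 0.09 and 0.13, beside 0.01 and -0.01 over all genes. These are small shifts read under TMM scaling, and the split of the partners, whose shift was also small, depended on scaling. Among exosome genes, the catalytic DIS3 rose by 0.21 ± 0.05 and 0.36 ± 0.05 and EXOSC8 by 0.22 ± 0.05 and 0.48 ± 0.06. SRRT, which links the cap to decay, rose by 0.38 ± 0.05 and 0.27 ± 0.05. ZFC3H1, the scaffold of the PAXT adaptor for polyadenylated nuclear RNA, fell by 0.74 ± 0.07 and 0.59 ± 0.07. The NEXT adaptor gene RBM7 fell in knockout gels by 0.45 ± 0.09. MTREX, listed with these adaptors, changed by -0.17 ± 0.06 in control gels and by 0.20 ± 0.06 in knockout gels, and passed in both. For the knockout, 8 rose and 4 fell in monolayers (12.3% and 6.15%, against 9.6% and 9.6% of all genes). In knockout gels against control gels 16 rose and 1 fell (24.6% and 1.54%, against 11.5% and 12.4%). The median SE was again smaller in the list, at 0.067 and 0.065 against 0.096 and 0.096 over all genes. Any part of these genes in the divergent levels was not tested.

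PCCA-DT and PDCD6IP-DT were named in 3 comparisons, more than any other member, and SLC12A2-DT was the most abundant of those named in 2. For these, the genes with the most similar profile of log2 CPM over the 8 libraries were sought among the other 15567 tested genes. PDCD6IP-DT was most like SUPT5H (r = 0.99), AP5S1 (0.99) and TRAF4 (0.99), while its own partner had r = 0.12 and rank 7014. PCCA-DT was most like NOP58 (0.99), ING2 (0.99) and NONO (0.98), with PCCA at r = -0.70. SLC12A2-DT was most like GPD2, MDM2 and NHS (0.99, 0.99 and 0.98), and SLC12A2 ranked 5 with r = 0.98. With 8 libraries in 4 groups, such values reflect few independent points.

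The count threshold fell in a dense range of low rows. Just inside it were ATP6AP1-DT (214 summed counts), FLVCR1-DT (228) and FAM111A-DT (228), and just outside MARCHF6-DT (199), ZNF567-DT (195) and ERRFI1-DT (194). ERRFI1-DT, beside a feedback inhibitor of EGFR, had 58 and 28 counts in control monolayers, 18 and 20 in knockout monolayers, 24 and 18 in control gels and 13 and 15 in knockout gels. With a threshold of 400, 57 transcripts remained, of which 16 fell and 2 rose in control gels and 18 fell and 5 rose in knockout gels.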

How the data were processed

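Poly(A) RNA of MDA-MB-231 cells was sequenced with a stranded kit, per the labels' protocols, in 8 libraries. The submitters' processing notes name FastQC 0.11.9, STAR 2.7.9a, featureCounts, R 4.1.1 and the build hg38. Neither the gene annotation nor whether counting used strand is stated. The authors deposited raw counts per gene symbol. The depth of 15824504 to 23896899 counts per library limits precision, most for the members with the fewest counts.

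Counts were filtered (filterByExpr, minimum count 10; 15568 genes, 99.9% of counts), scaled by TMM and fitted in edgeR 4.0.16 (R 4.3.3) with group means over all 8 libraries. Two-sided quasi-likelihood tests (robust) gave p-values adjusted over all genes by Benjamini-Hochberg. CPM uses the TMM factors. The script was tested on simulated data. Whether replicate numbers pair libraries is not stated. The deviations of same-numbered libraries correlated at -0.063 to 0.082 across genes, which shows no common shift but cannot tell how they were prepared. Alternatives were DESeq2 1.42.0, other scalings, filters and thresholds, a replicate block and each library left out.

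Members and lists were chosen with earlier results of these data known. Named transcripts were the 5 most abundant, the 5 largest rises and falls with non-overlapping groups per comparison, the 5 pairs per comparison that differed most, all pairs passed with opposite signs, the 3 nearest the threshold on each side, and genes most like the 3 members named in most comparisons (ties by mean CPM); the other transcripts and partners named, and the genes of the RNA processing list, were chosen after their values were seen. Not every item under this rule is reported here. Annotation came from GENCODE 29 and RefSeq (GRCh38.p14); 102 and 83 pairs matched.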

Additional observations from a re-analysis of the deposited data

Results flagged for a closer look

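Of the named transcripts and partners, 8 had a knockout effect in gels that differed from that in monolayers by the test of the interaction in edgeR (adjusted p under 0.05). As log2 differences, gels minus monolayers, they were -0.751 for SAP30-DT, -0.66 for APCDD1L-DT and -0.753 for its partner APCDD1L. The remaining partners were DUSP5 (0.47), ATP13A3 (0.325), CAMSAP1 (0.249), FMNL1 (-0.228) and TFIP11 (-0.327). For APCDD1L-DT, APCDD1L and DUSP5 the difference passed under every alternative that was run. The ATP13A3 difference missed the threshold without control gel replicate 1 (adjusted p = 0.062) or knockout gel replicate 2 (0.066). The CAMSAP1 difference missed it under 10 alternatives and the TFIP11 difference under 12.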

How the results depend on the processing

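Of 87 results for named transcripts and partners, 44 passed under every alternative run and 43 missed the threshold under some; no direction reversed. By DESeq2, 4 divergent transcripts passed for the knockout in monolayers and 4 in gels, 1 for the interaction, and 23 partners passed in control gels and 6 for the interaction; without a filter on low counts, 8 partners passed for the interaction. Pairs with both rows passed and the same sign numbered 3, 2 and 4 by DESeq2 for the knockout in monolayers, the knockout in gels and knockout cells in gels, and 7 and 13 by library size alone for control and knockout cells in gels. Among the 58 transcripts that share no annotated exon, 8 passed for the knockout in monolayers, 8 in gels and 15 for control gels; with a threshold of 400 counts, 18 of 57 passed in control gels and 23 in knockout gels; here fewer members were counted.

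Leaving out each library gave 6 to 15 and 5 to 13 divergent transcripts for the knockout in monolayers and gels, 20 to 33 and 28 to 39 for control and knockout cells in gels, and 1 to 5 for the interaction. Partners ranged over 18 to 38 in control gels and 4 to 14 for the interaction, and pairs with the same sign over 3 to 7, 2 to 6, 2 to 3 and 3 to 10 in the 4 comparisons. A lone library was assumed to vary like the others. The replicate block gave 15, 13, 29, 38 and 3 divergent transcripts for the knockout in monolayers, the knockout in gels, control gels, knockout gels and the interaction; the numbers are not known to pair libraries. The counts of opposite pairs under other scalings were chosen after seeing the data. The low counts of divergent transcripts limit what could pass: their median SE was 0.22 to 0.24 against 0.07 for the partners.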
